A study of Homo sapiens with 6 samples.

Results

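The enzymes that make and recycle nucleotides were followed in C42 cells, an established line of human prostate cancer. The set holds 33 genes, taken from a written list of purine, pyrimidine, deoxynucleotide and folate enzymes. All 33 had a row among the 31413 genes of the count table, and all 33 passed the filter on low counts that left 17160 genes for testing. RNA was sequenced from cells with a control shRNA (shCTR, libraries 1, 2 and 4) and from cells with an shRNA against NSD2, also named WHSC1 (shNSD2, libraries 1, 2 and 3). NSD2 is a histone methyltransferase, and the series asks, by its title, how it bears on immune infiltration in prostate cancer. All cells grew in RPMI medium with serum, and the libraries were made from polyadenylated RNA. The labels name 1 control and 1 NSD2 hairpin. Whether each library is its own culture is not stated, and the p-values reflect only how far these libraries spread, and that spread may be technical.

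Cells obtain nucleotides by building them from small precursors (de novo synthesis) or by re-using bases and nucleosides (salvage). Purines are assembled on the activated sugar PRPP as far as IMP, which is then turned into AMP or GMP, whereas the pyrimidine ring is closed before the sugar is attached to give UMP. Ribonucleotide reductase turns ribonucleotides into the deoxynucleotides needed for DNA, and thymidylate synthase makes the thymidine nucleotide with a carbon unit carried by folate. Many of these genes are known to be transcribed most in S phase, and several are targets of older anticancer drugs.

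Total counts ran from 19412896 to 20665494 per library. NSD2 transcript was 219, 223 and 200.1 counts per 1000000 counts of the library (CPM) in the controls and 85.3, 86.4 and 89.7 CPM in the shNSD2 libraries, a fall to 40.7% (edgeR adjusted p = 8.03e-05). All 8 luminal prostate markers were present, with a summed level of 9922 to 10445 CPM in shCTR and 8804 to 9569 CPM in shNSD2. Of 10 markers of other cell types, 5 had a row and 1 was tested. This was the endothelial gene VWF, at 5.47 to 5.72 CPM in shCTR and 7.24 to 8.06 CPM in shNSD2, called higher by edgeR (log2 fold change 0.43, adjusted p = 0.0273) but not by DESeq2, with the block or in the 5 fits that kept shCTR 4 and left out another library. ACTA2 had 6 to 10 counts per library in shCTR and 9 to 16 in shNSD2, CD68 had 5 to 7 and 5 to 14, and PECAM1 and PDGFRA had at most 1. The part of other cell types in the results was not tested. Control library 4 stood between the other controls and the shNSD2 libraries for many genes. Its place is given where it bears on a member, as the percentage of the way from the mean of shCTR 1 and 2 to the shNSD2 mean, on a log2(CPM + 1) scale.

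In the shNSD2 libraries, 8 of the 33 nucleotide enzyme genes were lower and 2 were higher at an adjusted p under 0.05. The 8 were RRM2, CAD, TYMS, RRM1, PFAS, DCK, CTPS1 and SHMT1, and the 2 were APRT and UCK2. Over all genes tested, 15.2% were lower and 15.5% higher, 30.7% in either direction. With both directions together, the members were thus called about as often as genes in general. By direction, members were called lower more often and higher less often than genes in general in this fit. The median log2 fold change of the members was -0.05, against 0.01 over all genes. Values of the 2 groups did not overlap for 13 members that were lower and 5 that were higher, beside 22.8% and 24% of all genes. RRM2, CAD and TYMS were called in all 6 fits that left out 1 library and in the 8 other alternatives. The other 7 calls were each lost in some of them. Without shCTR 4, 9 members were lower and 7 higher, beside 22.6% and 23.9% of all genes in that fit. Without shNSD2 3 it was 3 lower, and without shCTR 2, shNSD2 1 or shNSD2 2 it was 4. By edgeR 0 were higher in the 5 fits that kept shCTR 4. The share of all genes called in those 5 fits was not computed, so these counts are not set against genes in general.

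**Figure D1:**
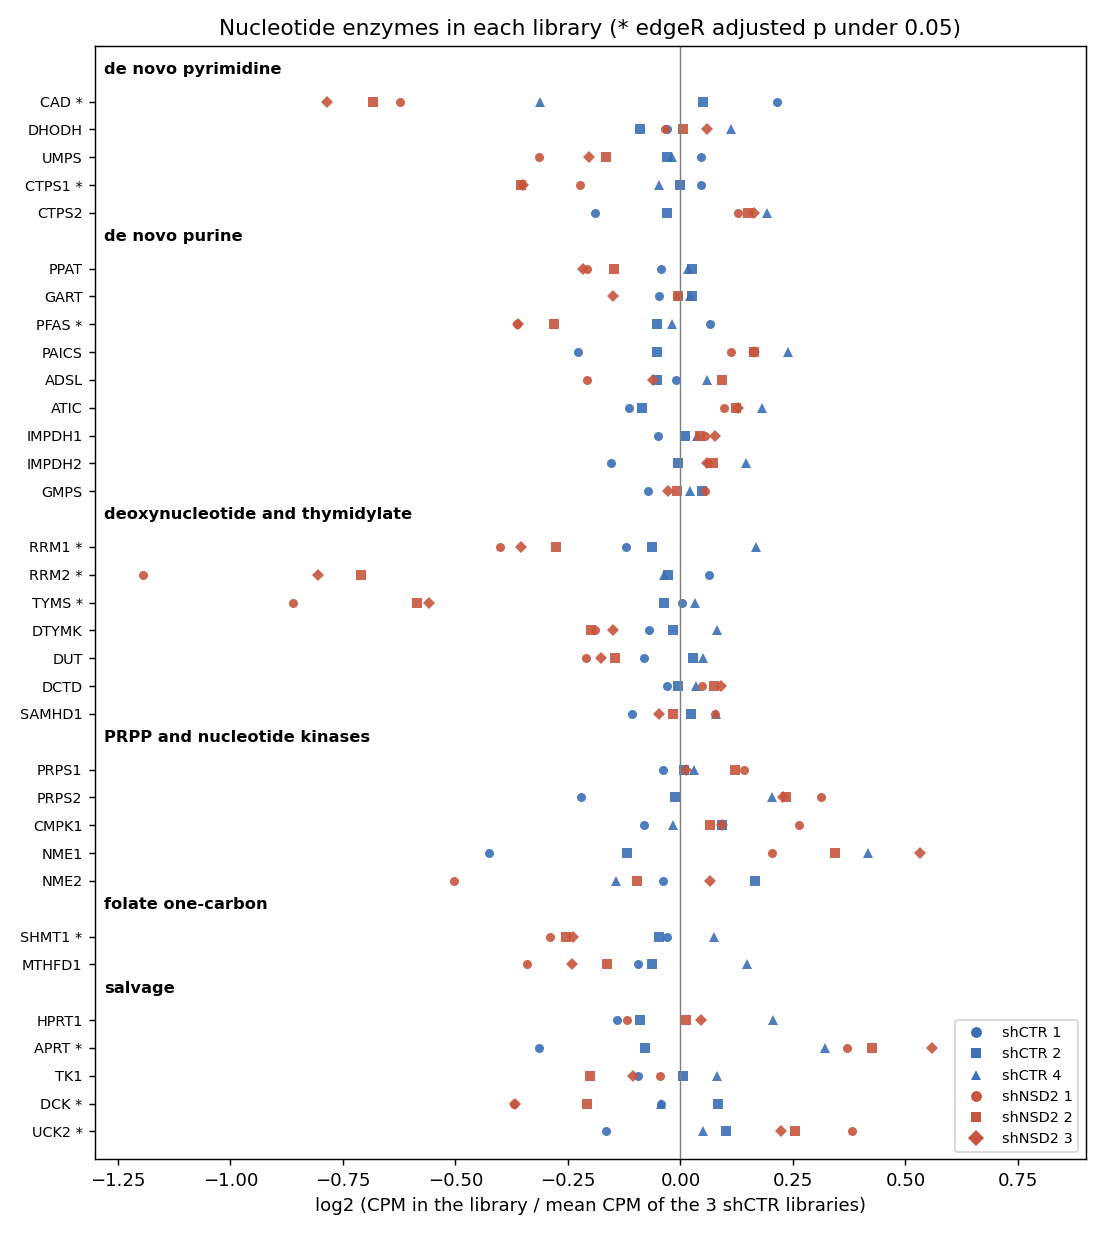
Each row is 1 of the 33 genes and each point 1 library, placed by the log2 ratio of its CPM to the mean CPM of the 3 shCTR libraries (blue shCTR, red shNSD2, shape by library number). RRM2, TYMS and CAD lie farthest to the left in shNSD2, and shCTR 4 (blue triangle) lies near the shNSD2 points for NME1, PRPS2 and APRT.

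In the controls, transcript levels per kb spanned a wide range across the pathway. They were computed as CPM per kb of the longest principal transcript in GENCODE 29, which may not be the transcript these cells express. The adenine salvage enzyme gene APRT stood highest at 212 CPM per kb, with 170 to 264 over the 3 controls. IMPDH2, which commits IMP to guanine nucleotides, followed at 199.9 CPM per kb, and its range of 180 to 221 overlapped that of APRT. ATIC, which completes the purine ring, stood at 117 and the thymidine kinase gene TK1 at 104 CPM per kb, with ranges of 108 to 133 and 97.1 to 109.6 that overlapped at one end. PAICS, MTHFD1, UCK2 and PRPS1 lay between 64.9 and 71.9 CPM per kb with ranges that overlapped. At the low end were CTPS2 (10.1), the dNTP hydrolase gene SAMHD1 (9.47), NME2 (6.85) and ADSL (2.13 CPM per kb). Within the pyrimidine route CTPS1 stood at 38.6 and CTPS2 at 10.1 CPM per kb, and in ribonucleotide reductase RRM1 stood at 51.8 and RRM2 at 28.7 CPM per kb.

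The levels of ADSL and the NME genes are uncertain, since other annotated genes on the same strand share their exons. The read-through gene NME1-NME2, not analysed here, shares 638 bases with NME1 and 603 with NME2. AL022238.4 shares 1344 bases with ADSL, 18.9% of its merged exons, and itself had at most 1 count in a library. How the authors' counting treated shared bases is not given in the sources used here.

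**Figure D2:**
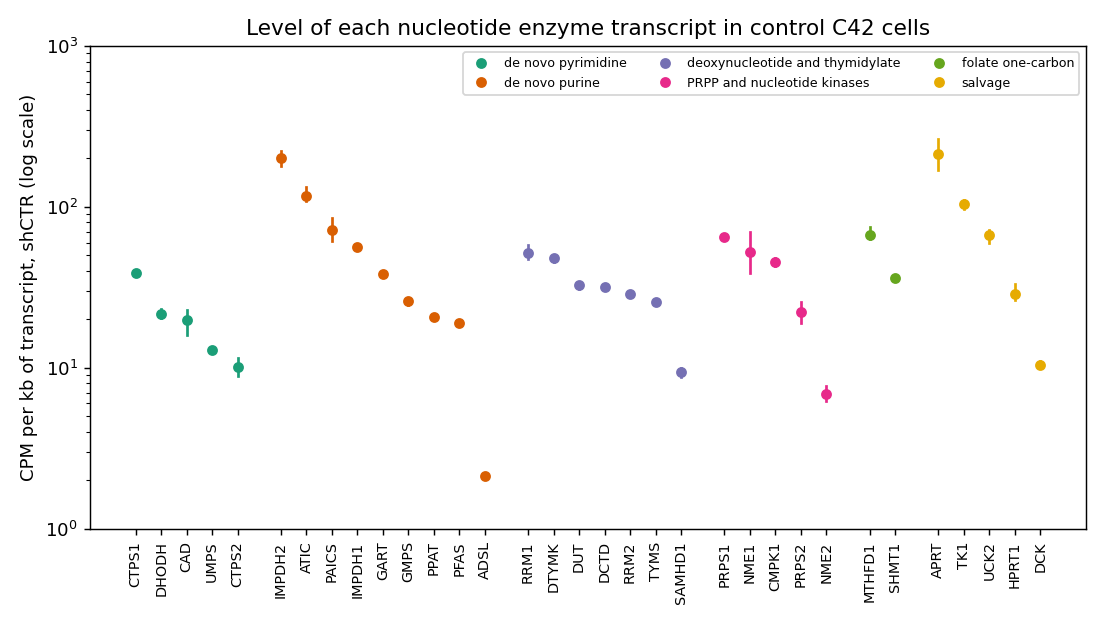
The vertical axis, on a log scale, gives CPM per kb of transcript in shCTR for each gene, grouped and coloured by pathway. Points are means and lines run from the lowest to the highest of the 3 control libraries, with APRT and IMPDH2 at the top and ADSL at 2.13 CPM per kb at the bottom.

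Among the deoxynucleotide genes, both subunits of ribonucleotide reductase and thymidylate synthase fell, 3 of 7 members, beside 15.2% lower over all genes. None rose by edgeR, DESeq2 or limma-voom, and 0 of the 7 were higher at an unadjusted p under 0.05, with 5 lower. RRM2, the small subunit that carries the radical and is made in S phase, was 103, 96.5 and 95.9 CPM in shCTR and 43.04, 60.2 and 56.3 CPM in shNSD2. The groups lay far apart, and shNSD2 1 was the lowest. The means were 98.4 ± 3.87 and 53.2 ± 8.99 CPM (SD, n = 3 each), a 1.85-fold fall (log2 fold change -0.89, SE 0.118, edgeR adjusted p = 0.00118). TYMS, thymidylate synthase, was 42.7, 41.5 and 43.6 CPM in shCTR and 23.5, 28.4 and 28.9 CPM in shNSD2. The control libraries were tight and the groups did not overlap, with a fall of 1.58-fold (log2 fold change -0.66, SE 0.0979, edgeR adjusted p = 0.00186). RRM1, the large subunit with the catalytic site, was 146, 152 and 179 CPM in shCTR and 121, 131 and 125 CPM in shNSD2. All 3 shNSD2 libraries were below all 3 controls, and shCTR 4 was the highest of the 6 (log2 fold change -0.34, SE 0.0983, edgeR adjusted p = 0.0250).

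The call of RRM1 was lost with the replicate number as a block (-0.25, edgeR adjusted p = 0.0831). Only numbers 1 and 2 occur in both groups, so that fit takes its fold changes from libraries 1 and 2 and leaves shCTR 4 and shNSD2 3 out of the contrast. It was also lost without shCTR 2 (adjusted p = 0.0616), shNSD2 1 (0.0944), shNSD2 2 (0.0673) or shNSD2 3 (0.0903). For TYMS, 46.6% of its merged exon bases lie opposite exons of other genes, chiefly ENOSF1. ENOSF1 itself stood at 89.6 ± 3.50 CPM in the controls and at 101.04 ± 5.76 CPM with shNSD2 (SD, n = 3; adjusted p = 0.137 by edgeR). Without a stated strand setting, reads of the 2 genes cannot be told apart where they overlap. AC007240.1 shares 20.2% of the merged exon bases of RRM2 on the same strand and held 18 to 40 counts per library.

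The other deoxynucleotide members did not pass the test. DTYMK, the kinase after thymidylate synthase, was 56.1 to 62.2 CPM in shCTR and 51.2 to 53.05 CPM in shNSD2. DUT, which removes dUTP, was 66.0 to 72.2 and 60.3 to 63.1 CPM. Neither pair of groups overlapped, with log2 fold changes of -0.18 for both and edgeR adjusted p-values of 0.110 and 0.113. The deaminase gene DCTD, which feeds dUMP to thymidylate synthase, had a log2 fold change of 0.07 (SE 0.0760), and SAMHD1 one of 0.01 (SE 0.0856). After a correction for each library's trend on GC content and gene length, DTYMK was called lower, with a log2 fold change of -0.40 (adjusted p = 0.00336 by edgeR).

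The promoters of the 2 deoxynucleotide genes that fell most, and of the nucleoside kinase gene DCK, which also fell, are shown because these windows differ in the sequence elements they hold. They run from 250 bases before to 50 after the annotated start, from RefSeq on GRCh38.p14, with matches in capitals. RRM2 lies at chr2:10122489-10122788, TYMS at chr18:657403-657702 and DCK at chr4:70993399-70993698, all on the plus strand.
RRM2: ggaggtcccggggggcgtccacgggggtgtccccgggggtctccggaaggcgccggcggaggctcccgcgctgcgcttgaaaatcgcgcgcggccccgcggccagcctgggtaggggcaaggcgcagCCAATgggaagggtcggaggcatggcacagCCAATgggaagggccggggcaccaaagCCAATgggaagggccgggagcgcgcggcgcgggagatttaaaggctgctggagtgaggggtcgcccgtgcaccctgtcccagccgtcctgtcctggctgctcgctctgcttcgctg
TYMS: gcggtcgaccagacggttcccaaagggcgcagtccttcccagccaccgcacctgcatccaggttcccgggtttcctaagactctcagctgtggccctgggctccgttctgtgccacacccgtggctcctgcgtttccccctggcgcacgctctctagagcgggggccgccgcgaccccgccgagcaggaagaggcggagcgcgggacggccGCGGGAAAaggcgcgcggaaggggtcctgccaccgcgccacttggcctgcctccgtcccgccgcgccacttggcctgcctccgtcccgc
DCK: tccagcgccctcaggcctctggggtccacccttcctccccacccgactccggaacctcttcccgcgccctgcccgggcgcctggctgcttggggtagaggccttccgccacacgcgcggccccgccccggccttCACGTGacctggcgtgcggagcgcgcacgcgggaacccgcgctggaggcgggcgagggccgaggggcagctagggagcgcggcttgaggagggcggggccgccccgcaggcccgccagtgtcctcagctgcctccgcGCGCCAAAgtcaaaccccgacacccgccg
The RRM2 window holds 3 CCAAT boxes, at -123, -93 and -66 from the start, and the TYMS window an E2F-type element at -39. The DCK window holds an E-box at -116 and an E2F-type element that begins at base 22 of the transcript. The searches, on both strands, were for CCAAT, for the E-box CACGTG, and for the E2F-type letters TTTCCCGC, TTTCGCGC and TTTGGCGC. Windows were found for 31 members (all but ADSL and IMPDH2), and any window of a gene counted. An E2F-type element was in 5 of the 31 (TYMS, DUT, DCK, GART and PRPS2), beside 5.41% of the tested genes with a window. An E-box was in 7 of the 31 (DHODH, PPAT, PAICS, ATIC, NME1, MTHFD1 and DCK), beside 12.7%. A CCAAT box was in 13 of the 31, beside 43%. Of the 5 genes with an E2F-type element, TYMS and DCK fell and the other 3 did not pass the test.

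The pyrimidine route held 2 lower members of 5, beside 15.2% lower over all genes. By edgeR, DESeq2 and limma-voom 0 were higher, and at an unadjusted p under 0.05 it was 3 lower and 0 higher. CAD, the fused enzyme that carries out the opening steps of pyrimidine synthesis, was 167, 149 and 116 CPM in shCTR and 93.2, 89.6 and 83.4 CPM in shNSD2. The shNSD2 libraries were close together and the controls spread, with shCTR 4 at 53.6% of the way to the shNSD2 mean. The fall was 1.62-fold (log2 fold change -0.70, SE 0.126, edgeR adjusted p = 0.00407), and -0.83 without shCTR 4. CTPS1, which makes CTP from UTP and is the form known for proliferating cells, was 128, 124 and 119.7 CPM in shCTR and 106, 96.7 and 97.0 CPM in shNSD2. The groups did not overlap (log2 fold change -0.31, SE 0.0832, edgeR adjusted p = 0.0199). Its call was lost without shCTR 2 (adjusted p = 0.0715), shNSD2 2 (0.101) or shNSD2 3 (0.0887). It was also lost under the GC content and length correction, which moved the log2 fold change to -0.10 (adjusted p = 0.320).

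UMPS, which makes UMP from orotate, was 85.5 to 90.1 CPM in shCTR and 70.1 to 77.7 CPM in shNSD2, with no overlap (log2 fold change -0.23, edgeR adjusted p = 0.0558). It passed the test without shCTR 4 (adjusted p = 0.0244), with DESeq2 size factors (0.0485) and with the filter of 1 CPM in 3 libraries (0.0459). DHODH, the mitochondrial enzyme that yields orotate, was 49.3 to 56.6 CPM in shCTR and 51.2 to 54.6 CPM in shNSD2, within the control range. CTPS2, the second CTP synthase, was 38.1, 42.6 and 49.7 CPM in shCTR and 47.5 to 48.7 CPM in shNSD2. Its value in shCTR 4 exceeded all 3 shNSD2 libraries, and without shCTR 4 it was called higher (0.25, edgeR adjusted p = 0.0204).

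**Figure D3:**
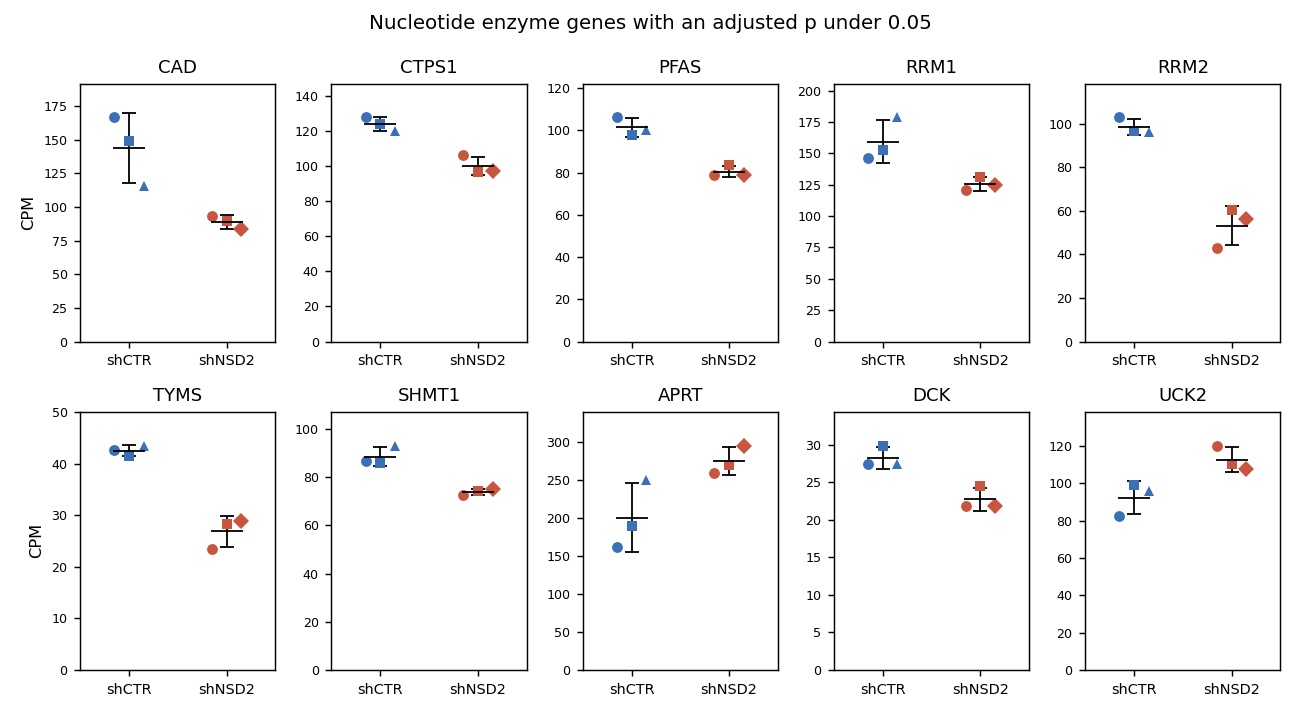
CPM of the 10 genes with an adjusted p under 0.05 in each library (shape by library number, circle 1, square 2, triangle 4 in shCTR and diamond 3 in shNSD2), with the mean and SD of 3 libraries in black and axes from 0. Groups do not overlap in any panel, and for CAD (116 CPM) and APRT (250.5 CPM) shCTR 4 is the control nearest to the shNSD2 libraries.

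Of 9 genes of de novo purine synthesis, 1 was lower and 0 higher by edgeR, DESeq2 and limma-voom. By edgeR, 15.2% of all genes were lower and 15.5% higher. At an unadjusted p under 0.05, 2 of the 9 were lower and 0 higher. PFAS, the amidotransferase of the fourth step, was 106, 97.8 and 100.1 CPM in shCTR and 78.8, 83.4 and 78.9 CPM in shNSD2. The groups were separate, with a fall of 1.26-fold (log2 fold change -0.34, SE 0.0807, edgeR adjusted p = 0.0127). The call was lost without shNSD2 1 (adjusted p = 0.0543) or shNSD2 3 (0.0604). PPAT, which opens the route from PRPP, was 73.8 to 77.5 CPM in shCTR and 65.5 to 68.7 CPM in shNSD2, also without overlap, but did not pass (log2 fold change -0.19, edgeR adjusted p = 0.0831).

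PPAT and PAICS are neighbours on chromosome 4 that are transcribed away from each other. PPAT spans 56393362 to 56435615 on the minus strand and PAICS 56435741 to 56464579 on the plus strand of GRCh38, and their RefSeq promoter windows overlap. The PPAT window, chr4:56435566-56435865, is shown on the minus strand because it is shared by both genes and holds the E-box at -182 from the PPAT start.
PPAT: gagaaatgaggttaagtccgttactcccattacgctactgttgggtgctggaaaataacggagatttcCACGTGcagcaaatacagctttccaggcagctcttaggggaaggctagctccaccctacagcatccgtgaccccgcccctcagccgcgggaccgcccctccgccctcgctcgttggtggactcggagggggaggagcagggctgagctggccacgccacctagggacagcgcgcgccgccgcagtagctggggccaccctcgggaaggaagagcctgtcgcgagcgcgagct
PAICS, whose protein joins the sixth and seventh steps, was 398, 450 and 550 CPM in shCTR and 503, 522 and 522 CPM in shNSD2. It thus had a log2 fold change of 0.15 (SE 0.124, edgeR adjusted p = 0.388), beside -0.19 for PPAT. For PAICS, shCTR 4 lay above every shNSD2 library, and without it PAICS was called higher (0.28, adjusted p = 0.0202).

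ATIC was also highest in shCTR 4, with 239, 244 and 294 CPM in shCTR and 277 to 283 CPM in shNSD2, and was called higher without shCTR 4 (0.22, edgeR adjusted p = 0.0431). IMPDH2 was 295, 327 and 363 CPM in shCTR and 342 to 345 CPM in shNSD2. IMPDH1, the second form of that enzyme, was 157 to 166 CPM and 167 to 171 CPM. GMPS, which makes GMP, was 216 to 235 CPM and 223 to 236 CPM. GART, a protein with 3 catalytic domains, was 130.02 to 137 CPM and 121 to 134 CPM. ADSL, used at a pair of purine steps, was 8.96 to 9.70 CPM and 8.06 to 9.91 CPM. The log2 fold changes of these 5 genes lay between -0.05 and 0.06, with SEs of 0.0817 to 0.122.

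Of the 5 genes that supply PRPP or phosphorylate nucleotides, 0 were called by edgeR at an adjusted p under 0.05, beside 30.7% of all genes. By DESeq2 and by limma-voom 0 were called too, and at an unadjusted p under 0.05 it was 1, PRPS2, higher. The PRPP synthetase gene PRPS2 was 47.7, 55.04 and 63.9 CPM in shCTR and 65.1 to 69.0 CPM in shNSD2, and shCTR 4 stood at 84.95% of the way to the shNSD2 mean. Its log2 fold change was 0.26 (edgeR adjusted p = 0.0861), 0.37 without shCTR 4 (adjusted p = 0.00214) and 0.39 with the block, which also leaves shCTR 4 out of the contrast (adjusted p = 0.00574). PRPS1, the other ubiquitous synthetase, was 136 to 143 CPM in shCTR and 141 to 154 CPM in shNSD2. NME1, a nucleoside diphosphate kinase, spread more than any other member in the controls relative to its mean, at 36.6, 45.3 and 65.6 CPM, with 56.6, 62.4 and 71.1 CPM in shNSD2. Its log2 fold change was 0.37 (edgeR adjusted p = 0.138), 0.63 without shCTR 4 (adjusted p = 1.95e-04) and 0.55 with the block (adjusted p = 2.30e-04). The UMP/CMP kinase gene CMPK1 had a log2 fold change of 0.14 and NME2 one of -0.16, with overlapping groups for both.

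Folate carries the carbon units used for purines and thymidylate, in a cytosolic and a mitochondrial arm that exchange serine, glycine and formate. Of the 2 cytosolic members, SHMT1 fell, beside 15.2% lower over all genes. SHMT1, the serine hydroxymethyltransferase of the cytosol, was 86.7, 85.7 and 93.2 CPM in shCTR and 72.5, 74.3 and 75.1 CPM in shNSD2 (log2 fold change -0.26, SE 0.0794, edgeR adjusted p = 0.0316). The groups were apart, but the call was lost without shCTR 2 (adjusted p = 0.0779), shNSD2 1 (0.105), shNSD2 2 (0.113) or shNSD2 3 (0.0919). It was also lost without the low-count filter (0.07) and with the block (0.0854). The trifunctional enzyme gene MTHFD1 was 197, 202 and 233 CPM in shCTR and 166, 188 and 178 CPM in shNSD2. Its groups did not overlap, with a log2 fold change of -0.25 and an edgeR adjusted p = 0.0803.

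Among 16 further genes of folate and serine metabolism, 2 were lower and 7 higher, beside 15.2% and 15.5% of all genes. The folate carrier gene SLC19A1 went from 96.1 ± 12.8 to 72.4 ± 1.67 CPM (SD, n = 3; adjusted p = 0.0151 by edgeR), and GGH, a lysosomal enzyme that trims folate tails, from 65.2 ± 5.85 to 53.3 ± 2.56 CPM (adjusted p = 0.0355). In the mitochondrial arm, SHMT2 was 297, 355 and 453 CPM in shCTR and 526, 481 and 476 CPM in shNSD2. MTHFD2, which oxidises the carbon unit there, was 128, 163 and 191 CPM in shCTR and 242, 219 and 206 CPM in shNSD2. MTHFD1L, which releases formate, was 29.8, 34.5 and 42.8 CPM in shCTR and 48.4, 48.1 and 44.9 CPM in shNSD2. The groups did not overlap for these 3 genes, with log2 fold changes of 0.43, 0.47 and 0.40 (edgeR adjusted p = 0.0453, 0.0263 and 0.0310). These and the serine genes below were chosen after their values were seen.

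The serine synthesis genes PHGDH, PSAT1 and PSPH rose too, with log2 fold changes of 0.68, 0.59 and 0.40 (adjusted p = 0.0169, 0.0234 and 0.0268 by edgeR). PHGDH was 427, 513 and 741 CPM in shCTR and 939, 866 and 887 CPM in shNSD2. In all 6 of these genes shCTR 4 was the highest control, at 65.0% to 79.1% of the way to the shNSD2 mean. The calls of SHMT2, MTHFD2, MTHFD1L, PSAT1 and PSPH were lost in all 5 fits that kept shCTR 4 and left out another library (adjusted p = 0.0543 to 0.141). That of PHGDH was lost without shCTR 2, shNSD2 1 or shNSD2 3 (adjusted p = 0.0571 to 0.0744). SHMT2 was also lost under the GC content and length correction (adjusted p = 0.0604). The call of SLC19A1 was lost without shCTR 2, shNSD2 2 or shNSD2 3 (0.0561 to 0.0650), and that of GGH in 4 of the 6 fits, all but those without shCTR 2 or shCTR 4 (0.0735 to 0.135). GGH was lost as well without the low-count filter (0.0629) and with the block (0.149). Over this list, 0 to 3 genes were lower and 0 to 7 higher with a library left out. The lower count was 3 and the higher 7 without shCTR 4, beside 22.6% and 23.9% of all genes in that fit. The lower count was 0 without shNSD2 2 or shNSD2 3, and the higher count was 0 or 1 in the 5 fits that kept shCTR 4. For those 5 fits the share of all genes called was not computed.

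**Figure D4:**
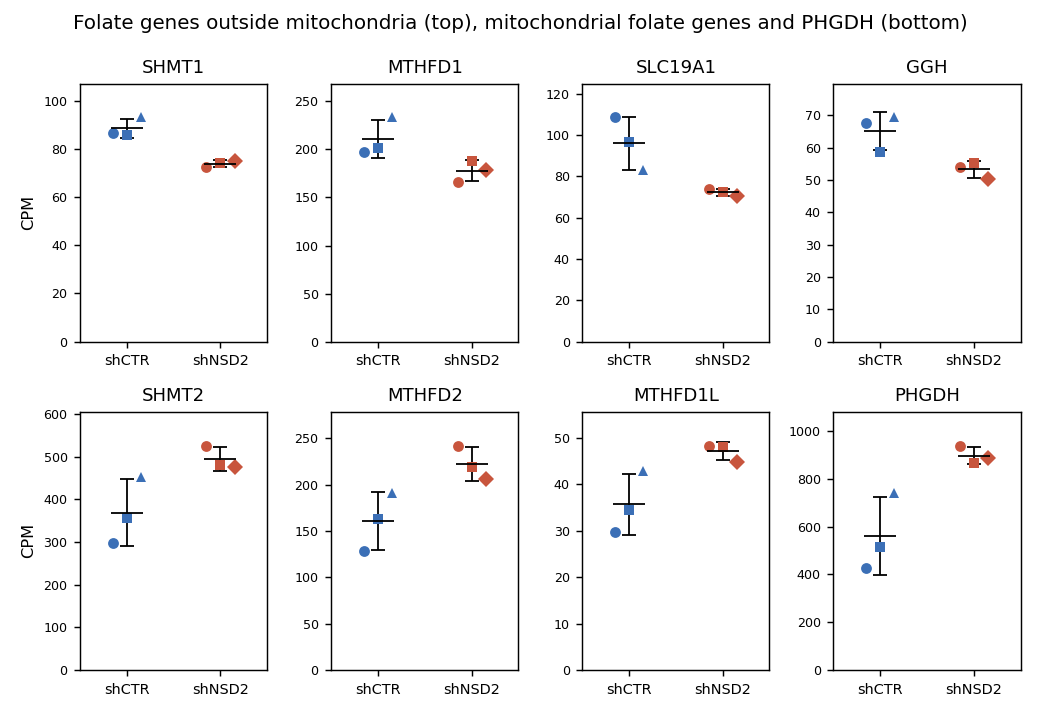
CPM per library, with mean and SD of 3 libraries in black, for folate genes outside the mitochondria (top row) and mitochondrial folate genes with the serine gene PHGDH (bottom row). Shapes mark library numbers and axes start at 0. The shNSD2 points lie below the controls in the top row and above them in the bottom row, and shCTR 4 (triangle) is the highest control in the bottom row.

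The salvage members moved in both directions, with 2 of 5 higher and 1 lower, beside 15.5% and 15.2% of all genes. APRT, which recovers adenine, was 161, 190.1 and 250.5 CPM in shCTR and 259, 269 and 295 CPM in shNSD2. The lowest shNSD2 value stood just above shCTR 4, which was at 79.7% of the way to the shNSD2 mean. APRT rose 1.37-fold (log2 fold change 0.45, SE 0.146, edgeR adjusted p = 0.0379), and by 0.64 without shCTR 4. The call was lost in the 5 fits without another library (adjusted p = 0.0735 to 0.138). It was also lost under the GC content and length correction (0.15, adjusted p = 0.296).

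UCK2, the uridine and cytidine kinase, was 82.3, 99.2 and 95.7 CPM in shCTR and 120.4, 110.2 and 108 CPM in shNSD2. The groups were apart by a small gap (log2 fold change 0.29, SE 0.0961, edgeR adjusted p = 0.0435). The call was lost without any library other than shCTR 4 (adjusted p = 0.0689 to 0.145) and without the low-count filter (0.0735). DCK, the kinase that activates deoxycytidine and drugs such as cytarabine, was 27.4, 29.9 and 27.4 CPM in shCTR and 21.8, 24.4 and 21.9 CPM in shNSD2. It fell by 0.31 on the log2 scale (SE 0.0922, edgeR adjusted p = 0.0276). The call was lost without shCTR 2 (0.117), shNSD2 1 (0.0933), shNSD2 2 (0.0520) or shNSD2 3 (0.112), and by DESeq2 (0.0550).

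TK1, the S-phase thymidine kinase, did not pass, with 158 to 178 CPM in shCTR and 147 to 163 CPM in shNSD2 (log2 fold change -0.12, edgeR adjusted p = 0.345). Under the GC content and length correction its log2 fold change was -0.41 (adjusted p = 0.00582). HPRT1, which recovers hypoxanthine and guanine, was 36.9 to 47.0 CPM in shCTR and 37.5 to 41.99 CPM in shNSD2, within the control range.

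Outside the members, 74 other genes of nucleotide and folate metabolism had a row and 65 were tested, of which 21 were higher and 5 lower, with a median log2 fold change of 0.18, beside 15.5% higher, 15.2% lower and a median of 0.01 over all genes. Without shCTR 4, 33 were higher and 10 lower, beside 23.9% and 22.6% of all genes in that fit. With another library left out, 8 to 10 were higher and 3 to 4 lower, the lowest counts being 8 without shCTR 2 or shNSD2 3 for the higher and 3 without shNSD2 2 or shNSD2 3 for the lower genes. Under the GC content and length correction 18 were higher and 9 lower. The share of all genes called was not computed for that correction or for the fits that kept shCTR 4 and left out another library. The change in these counts is therefore not read as particular to these genes. By list, 5 of 18 tested purine genes were higher and 0 lower by edgeR (also 0 by DESeq2 and limma-voom, and 1 at an unadjusted p under 0.05). Of 19 pyrimidine and deoxynucleotide genes 6 were higher and 1 lower, and of 12 nucleotidases and carriers 3 were higher and 2 lower.

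Enzymes that split or degrade nucleosides and nucleotides differed in how they moved. TYMP, which splits thymidine into thymine and a sugar phosphate, was 18.7, 21.8 and 22.3 CPM in shCTR and 35.1, 30.9 and 34.5 CPM in shNSD2, a log2 fold change of 0.68 with a wide gap between groups (edgeR adjusted p = 0.00187). The uridine phosphorylase gene UPP1 went from 1.001 ± 0.337 to 2.66 ± 0.215 CPM (SD, n = 3; adjusted p = 0.00386 by edgeR), above the floor of 0.145 to 0.155 CPM that 3 counts give. ADA, adenosine deaminase, was 7.29, 9.21 and 12.8 CPM in shCTR and 19.1, 15.7 and 18.6 CPM in shNSD2 (log2 fold change 0.87, edgeR adjusted p = 0.00671). The mitochondrial nucleotidase gene NT5M (0.74) and the deoxynucleoside monophosphate hydrolase gene DNPH1 (0.61) rose as well. The phosphorylase genes PNP (log2 fold change -0.07) and MTAP (-0.04), the AMP deaminase gene AMPD2 (-0.22), the pyrimidine degradation gene UPB1 (-0.37) and the nucleotidase gene NT5C2 (0.07) did not pass the test, and another nucleotidase gene, NT5C3A, fell.

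Kinases outside the member list rose too. AK4, a mitochondrial adenylate kinase, rose by 0.50 on the log2 scale, the nucleoside diphosphate kinase gene NME3 by 0.56 and the guanylate kinase gene GUK1 by 0.42. Their edgeR adjusted p-values were 0.00968, 0.00437 and 0.00843. The call of GUK1 was lost without shNSD2 3 (adjusted p = 0.0515). Those of NME3, DNPH1 and NT5M were lost under the GC content and length correction (adjusted p = 0.0621, 0.0658 and 0.0750).

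Among the carriers, SLC29A1 fell, which encodes the main equilibrative nucleoside transporter of the cell surface. It was 128, 102 and 95.0 CPM in shCTR and 63.5, 68.8 and 62.2 CPM in shNSD2, a log2 fold change of -0.74 with no overlap (edgeR adjusted p = 0.00217). CMPK2, a mitochondrial nucleotide kinase that is also induced by interferon, went from 2.65 ± 0.547 to 1.26 ± 0.0724 CPM (SD, n = 3; adjusted p = 0.00701 by edgeR). NT5C3A, a pyrimidine nucleotidase, had a log2 fold change of -0.42 (adjusted p = 0.00868 by edgeR). SLC29A1, CMPK2, NT5C3A, TYMP, UPP1, ADA and AK4 were called in all 6 fits without a library and in the 8 other alternatives.

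Genes of S phase and proliferation moved with the members that fell. Of 14 listed genes, among them MKI67, E2F1 and the MCM helicase subunits, 13 were lower and 0 higher. Over all genes tested, 15.2% were lower and 15.5% higher. PCNA was the 1 listed gene not called (log2 fold change -0.27, edgeR adjusted p = 0.0752). The median log2 fold change of the 14 was -0.57, with a range of -1.14 to -0.27. At an unadjusted p under 0.05 all 14 were lower. By DESeq2 and limma-voom 0 were higher too, and 11 to 14 were lower with a library left out. RRM2 (-0.89) and TYMS (-0.66) lay within that range and TK1 (-0.12) outside it. In bulk RNA, fewer cells in S phase and less transcript per cell cannot be told apart. The part of cell cycle distribution in the falls of RRM2, TYMS and RRM1 was not tested.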

How the data were processed

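Total RNA of 6 C42 libraries, 3 per group, was prepared with a KAPA mRNA kit, per the labels' protocols. The deposited table holds raw read counts per gene, made by the authors and not normalized. Per the submitters' processing notes, CASAVA 1.8.2, STAR 2.6.0a and GRCh38 were used. The counting program, annotation, strand setting and any row filter were not given in the sources used here, nor is a batch or date.

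Groups came from sample titles. The test was that of edgeR 4.0.16, run in R 4.3.3 (filterByExpr, TMM, quasi-likelihood test, no covariate), with Benjamini-Hochberg adjustment over all 17160 genes tested and a threshold of 0.05. CPM values are scaled by TMM. SEs come from the fold change and F statistic. NSD2 CPM also gave p = 0.1 in an exact two-sided permutation test, the smallest that 3 against 3 allow. Floors of 3 counts cover counting error only. Gene positions and lengths are from GENCODE 29, found for 31313 of 31413 rows. Promoters are from RefSeq.

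All 33 members are named, and of the other pathway genes by rule at most 8 lower and 8 higher calls, those of smallest adjusted p. Other genes named outside that rule, among them SHMT2, MTHFD2, MTHFD1L, PHGDH, PSAT1, PSPH and DGUOK, were chosen after their values were seen. 1 gene of the folate list is not reported here and is left out of its counts. Members and lists were chosen with earlier results of these data known. Alternatives were no filter, a filter of 1 CPM in 3 libraries, DESeq2 size factors, plain library size, the DESeq2 1.42.0 Wald test, limma-voom (limma 3.58.1), the replicate number as a block, a correction for GC content and exon length, and each library left out. On counts simulated for 17160 genes, with 200 changed and 16860 left after the filter, the fit recovered 46% of genes changed 1.5-fold. It recovered 79% of those changed 2-fold, with 9 false among 134 calls. In the data 30.7% of genes were called, and the simulation held no intermediate control like shCTR 4. These rates therefore need not hold for the data.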

Additional observations from a re-analysis of the deposited data

How the results depend on the processing

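The NSD2 fall and the calls of RRM2, CAD and TYMS kept their direction and side of the threshold in every alternative run. With 1 library left out, the number of lower members ran from 3 to 9 and of higher members from 0 to 7, that of lower other pathway genes from 3 to 10 and of higher ones from 8 to 33. Higher members numbered 1 without the low-count filter, 1 under the GC content and length correction and 4 with the replicate block, and lower other pathway genes numbered 9 under that correction. The share of all genes called was computed only for the main fit and the fit without shCTR 4. Changes in these counts are therefore not read as particular to the listed genes. The replicate block takes the contrast from libraries 1 and 2 alone and is no check separate from leaving out shCTR 4. With the block the member median turned from -0.05 to 0.0058, and PRPS2 and NME1 passed the test while RRM1, SHMT1 and GGH lost theirs. Only numbers 1 and 2 are shared by the groups. The deviations of same-numbered libraries from their group means correlated at 0.0485 (number 1) and -0.178 (number 2) over 11218 genes. Those of library pairs with unlike numbers ran from -0.437 to 0.485. Deviations within a group of 3 are tied to each other, so these values cannot decide whether the numbers pair the samples. The other reversals were in members that passed no test in either fit. With the correction they were GART (0.039), ADSL (0.042), IMPDH1 (-0.15), IMPDH2 (-0.044) and DCTD (-0.024). With the block they were GART (0.0058) and HPRT1 (0.062). GMPS turned to -0.00035 with the filter of 1 CPM and to -0.0015 with DESeq2 size factors, and SAMHD1 to -0.0023 and -0.0033. With a library left out, DHODH ran from -0.031 to 0.070, ADSL from -0.13 to 0.021, IMPDH2 from -0.016 to 0.14, GMPS from -0.037 to 0.031, SAMHD1 from -0.055 to 0.046 and HPRT1 from -0.092 to 0.097. The cause of these changes was not tested. Depth was near even across libraries, and 14253 rows were too low to test.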

Other observations

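Several nucleotide enzymes come as pairs of related genes, and their ratio within a library does not depend on library size. The 8 pairs compared were chosen after the values were seen. In 6 of them the log2 ratio of the CPM values in every shNSD2 library lay below that in every shCTR library. The share of gene pairs in general that separate so was not computed, and among single genes 22.8% were lower and 24% higher without overlap, so nothing particular to these pairs is read from the count. The ratio of the S-phase subunit gene RRM2 to RRM2B, a subunit induced by p53, was 0.50, 0.28 and 0.60 in shCTR and -0.63, -0.07 and -0.08 in shNSD2, a difference of -0.72. The ratio of the cytosolic and nuclear kinase gene DCK to DGUOK, its mitochondrial counterpart, was 0.78, 0.96 and 0.54 in shCTR and -0.10, 0.12 and -0.01 in shNSD2 (difference -0.76). DGUOK itself rose, with a log2 fold change of 0.44 (adjusted p = 0.0119 by edgeR), a call lost without shCTR 2 (adjusted p = 0.0597). SHMT1 to SHMT2 differed by -0.71, MTHFD1 to MTHFD1L by -0.66, CTPS1 to CTPS2 by -0.46 and TK1 to its mitochondrial counterpart TK2 by -0.29.

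PRPS1 to PRPS2 differed by -0.18 and IMPDH1 to IMPDH2 by -0.01, with groups that overlapped. For the 6 pairs whose groups were apart, p was 0.1 in an exact two-sided permutation test, which can go no lower with groups of 3, and 0.133 adjusted over the 8 pairs, so none passed 0.05. For PRPS1 to PRPS2 p was 0.2, and for IMPDH1 to IMPDH2 it was 0.9. In all of those 6 pairs but RRM2 to RRM2B, shCTR 4 was the control nearest to the shNSD2 libraries, at -2.28 in SHMT1 to SHMT2 and 1.27 in CTPS1 to CTPS2.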
